A study of Oryza sativa with 12 samples.

Results

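The loss of 3 related transcription factors at once was set against the summed effects of losing 2 of them singly, in rice shoots starved of phosphate. The quantity described is the departure from the sum, the phr123 log2 difference from wild type (WT) minus the phr1 and the phr3 log2 differences from WT, so that 0 means that the fold changes of the single mutants multiply to that of the triple mutant. It uses all 12 of the 12 arrays, 3 each of WT, the phr1 mutant, the phr3 mutant and the phr123 triple mutant, which lacks PHR1, PHR2 and PHR3. The seedlings grew in nutrient solution with 200 µM phosphate for 14 days, and every genotype was then kept without phosphate for 7 days. Shoot RNA was labelled with biotin and read on the Affymetrix rice GeneChip. The labels name the cultivar Nipponbare for WT and no background, allele or number of lines for the mutants, they call the arrays 3 biological repeats, and their tissue entry is leaf while the protocol says shoot. No array of plants kept on phosphate, or of plants lacking PHR2 alone, is used. A departure therefore holds the effect of losing PHR2 alone together with any dependence among the 3 losses, and these cannot be told apart.

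PHR1, PHR2 and PHR3 are MYB-type transcription factors that bind a short promoter element, P1BS, in front of genes induced by phosphate starvation. SPX domain proteins hold them back when phosphate is plentiful, and the SPX genes are themselves among their targets, as are genes for phosphate transporters and for the galactolipid synthases that let membranes spare phospholipid. In rice PHR2 is regarded as the main member, with PHR1 and PHR3 overlapping it in function.

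Values are signals, the deposited intensities on a linear scale, and all differences are on the log2 scale. Per array the trimmed mean signal was 500.1, the median signal ran from 56.6 to 85.6, and between 47.5% and 57.1% of probe sets were brighter than the reporter level. That level is the 95th percentile of the array's control probe sets for reporter sequences, and serves as its background. PHR2 (LOC4343086) read 1750.2, 2031 and 1814 in WT, 1645, 1898 and 1986 in phr1, 2107, 1939 and 1968 in phr3 and 18.3, 43.8 and 24.3 in phr123, at least 28.7-fold lower in phr123 than in WT. PHR1 (LOC4332726) read 877, 1096 and 1154 in WT, 404, 514 and 559.5 in phr1, 1204, 1148 and 1135 in phr3 and 569, 753 and 811 in phr123, with a departure of 0.36 (SE 0.225, adjusted p = 0.261). PHR3 (LOC4328249) read 462, 469 and 387 in WT, 426, 409.7 and 408 in phr1, 57.7, 119 and 94.5 in phr3 and 1187, 173 and 118 in phr123. The array labelled phr123 replicate 1 thus stood above all WT arrays in PHR3, unlike the other phr123 arrays, and goes against its label. The PHR3 departure was 1.82 (SE 0.852, adjusted p = 0.128). Without that array the departure was called for 3532 probe sets above and 4561 below the sum, against 3869 and 4703 with all arrays, and gene lists whose counts moved most without it are given both ways. The labels do not say where the probe sets lie relative to the disrupted part of each gene, so a remaining PHR1 or PHR3 signal checks the labels only in part. Summed signals of 4 green shoot marker genes were 345591 to 350615 in WT and 241087 to 284804 in phr123. In phr1 they were 348146 to 382515, and in phr3 305073 to 366074. Those of 48 genes of dividing tissue were 21596 to 23738 in WT and 14098 to 15215 in phr123. For phr1 the dividing-tissue sums were 21226 to 23972, and for phr3 19641 to 21271, below the WT range. Of 5 genes on the root marker list, 3 were tested and 0 departed, and 4 root genes fixed as cell type markers summed to between 952 and 1418 on all arrays. In bulk RNA, fewer cells of a type and less RNA per cell cannot be told apart.

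Departures were widespread and went both ways. Of 28597 probe sets tested, 30.0% departed from the sum at an adjusted p of 0.05, 3869 (13.5%) above it and 4703 (16.4%) below it, and 1657 and 2822 of these were also past 2-fold. Counted as genes, with the brightest probe set standing for each, 2723 of 15469 lay above the sum (17.6%) and 3096 below it (20.0%). For 2775 genes (17.9%) all 3 phr123 arrays lay above the range of the 27 sums that single arrays can give, and for 3036 (19.6%) all 3 lay below it. The median departure over all genes was 0.003. This split depended on how the arrays were scaled. The array medians had a departure of -0.37 of their own, and centring every array on its median gave 5952 probe sets above and 2187 below, so that 73.1% of the calls were above the sum in place of 45.1%, while the median departure of the probe sets moved from -0.05 to 0.32. Quantile normalization gave 3946 above and 4451 below. Counts under median centring are therefore given for many of the gene groups they change. A group printed without them is not thereby free of the effect of scaling. Counted as genes, centred arrays gave 4100 above and 1432 below the sum of 15469.

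**Figure D1:**
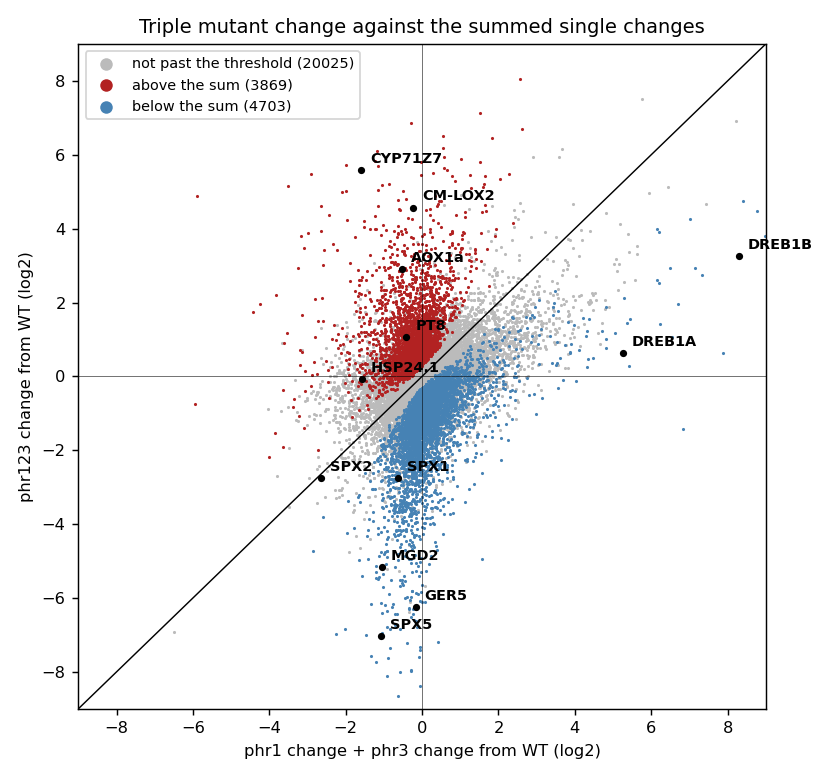
Each point is 1 of 28597 probe sets, with the summed phr1 and phr3 changes from WT on the x axis and the phr123 change from WT on the y axis, both in log2 units; the diagonal is the sum, red points lie above it and blue points below it past the threshold. The cloud of called points is steep, with phr123 changes reaching far beyond 2-fold where the single changes sum to about 0, SPX2 lies close to the diagonal, and DREB1A and DREB1B lie far to its right.

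Most departing genes changed in phr123 while neither single mutant passed the test against WT. That held for 2232 of the 2723 genes above the sum (82.0%) and for 2567 of the 3096 below it (82.9%). In phr123 itself 3979 genes rose (25.7%) and 3910 fell (25.3%). The 3 differences from WT share the WT arrays, and they called 128 probe sets higher and 139 lower in phr1, 360 and 209 in phr3, and 5870 and 6012 in phr123. By the signs of the values, phr123 went past the sum in the same direction for 826 genes above and 1305 below. It stopped short of the sum for 80 and 131 genes, and it lay on the other side of WT from the sum for 1817 and 1660. Most sums were small: among genes with the opposite sign the median phr1 and phr3 differences were -0.14 and -0.12 for those above, and 0.15 and 0.13 for those below. A high phr1 or phr3 reading raises the sum and lowers the departure by itself, so this sorting is a description.

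**Figure D2:**
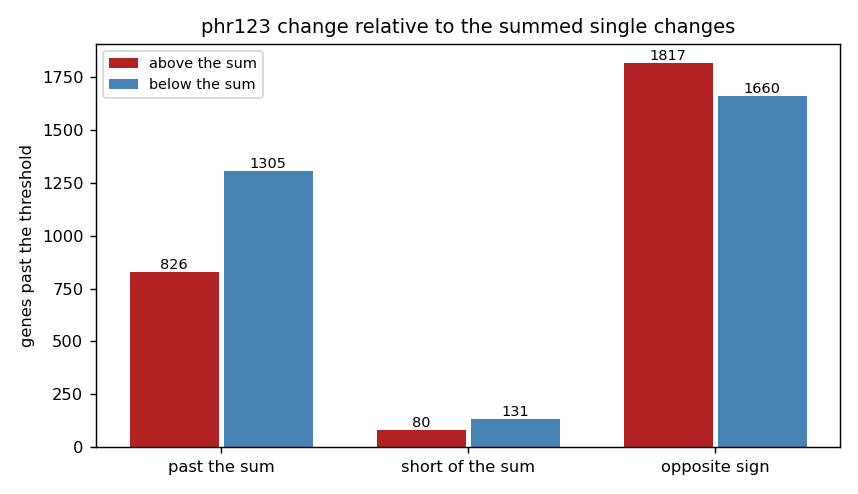
Bars give the number of genes past the threshold, by where the phr123 change lay relative to the summed phr1 and phr3 changes; red bars are genes above the sum and blue bars genes below it. Short of the sum is the smallest class in both directions, with 80 and 131 genes.

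The smaller group of genes called in a single mutant shows how single changes were carried into phr123. Of 77 genes that rose in phr1 (0.498% of genes tested), 49 lay below the sum and 6 above it. Of 259 that rose in phr3 (1.67%), 121 lay below and 13 above. Among those that fell, 97 in phr1 (0.627%) and 135 in phr3 (0.873%), 40 and 61 lay above the sum, against 26 and 25 below it. The median phr123 difference of the 259 genes raised in phr3 was 0.72, beside 0.84 in phr3 itself, and for 43 of them the phr123 difference was negative. These genes were chosen on readings that enter the departure with the opposite sign, so the lean of the counts is fixed in part by that choice.

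SPX genes, which encode the phosphate-sensing partners of the PHR proteins, split between members that followed the sum and members that fell far past it. Of 7 SPX and PHO1 genes tested, 4 lay below the sum and 0 above it, with a median departure of -1.19, and 3 lay below with centred arrays. SPX2 (LOC4328654) read 14335, 12262 and 11643 in WT, 1967, 2058 and 1953 in phr1, 15031, 11559 and 12129.8 in phr3 and 2085, 1624 and 1960.3 in phr123. Its phr1 and phr123 arrays overlap and its phr3 arrays overlap those of WT, so the level given by the sum, 2012, was close to the phr123 level of 1879 (departure -0.10, SE 0.166, adjusted p = 0.707). SPX1 (LOC4341465) read 12832, 12049 and 12432 in WT, 9119, 8447 and 8078 in phr1, 12349.9, 11338 and 11637 in phr3 and 1939.9, 1784 and 1790.1 in phr123. It fell by a log2 difference of -0.54 in phr1 (adjusted p = 0.00212), its phr3 difference of -0.08 did not pass, and all 3 phr123 arrays were below every other array, 4.4-fold below the sum with a departure of -2.14 (SE 0.104, adjusted p = 1.39e-08).

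SPX3 (LOC4348535) read 1763, 1214 and 1265 in WT, 613, 392 and 346 in phr1, 552, 654 and 643 in phr3 and 57, 34.3 and 75.7 in phr123. Both single mutants lay below WT and phr123 below both, with no overlap. The sum gives 193 for phr123 and the measured level was 52.9, a departure of -1.86 (SE 0.389, adjusted p = 0.00241). One of its phr123 arrays lay at or below the reporter level, so the size is uncertain, and on the linear signal, where the single losses add up to more than the WT signal, its departure was 402.3 above the sum. SPX5 (LOC4333078) read 3089.5, 2632 and 2757 in WT, 1915, 1216 and 1626 in phr1, 2547, 2349.9 and 2312 in phr3 and 4.9, 45.7 and 44.8 in phr123. Every phr123 array was at or below the reporter level, which makes phr123 at least 20.5-fold below the sum and at least 43.5-fold below WT (adjusted p of the departure 0.000124). PHO1-3 (LOC4341088), of the PHO1 family of phosphate exporters, departed by -1.19 (SE 0.319, adjusted p = 0.0114), a call that ended with centred arrays (-0.83, adjusted p = 0.134). SPX4 and PHO1-2 gave 0.11 and -0.46 and did not pass.

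**Figure D3:**
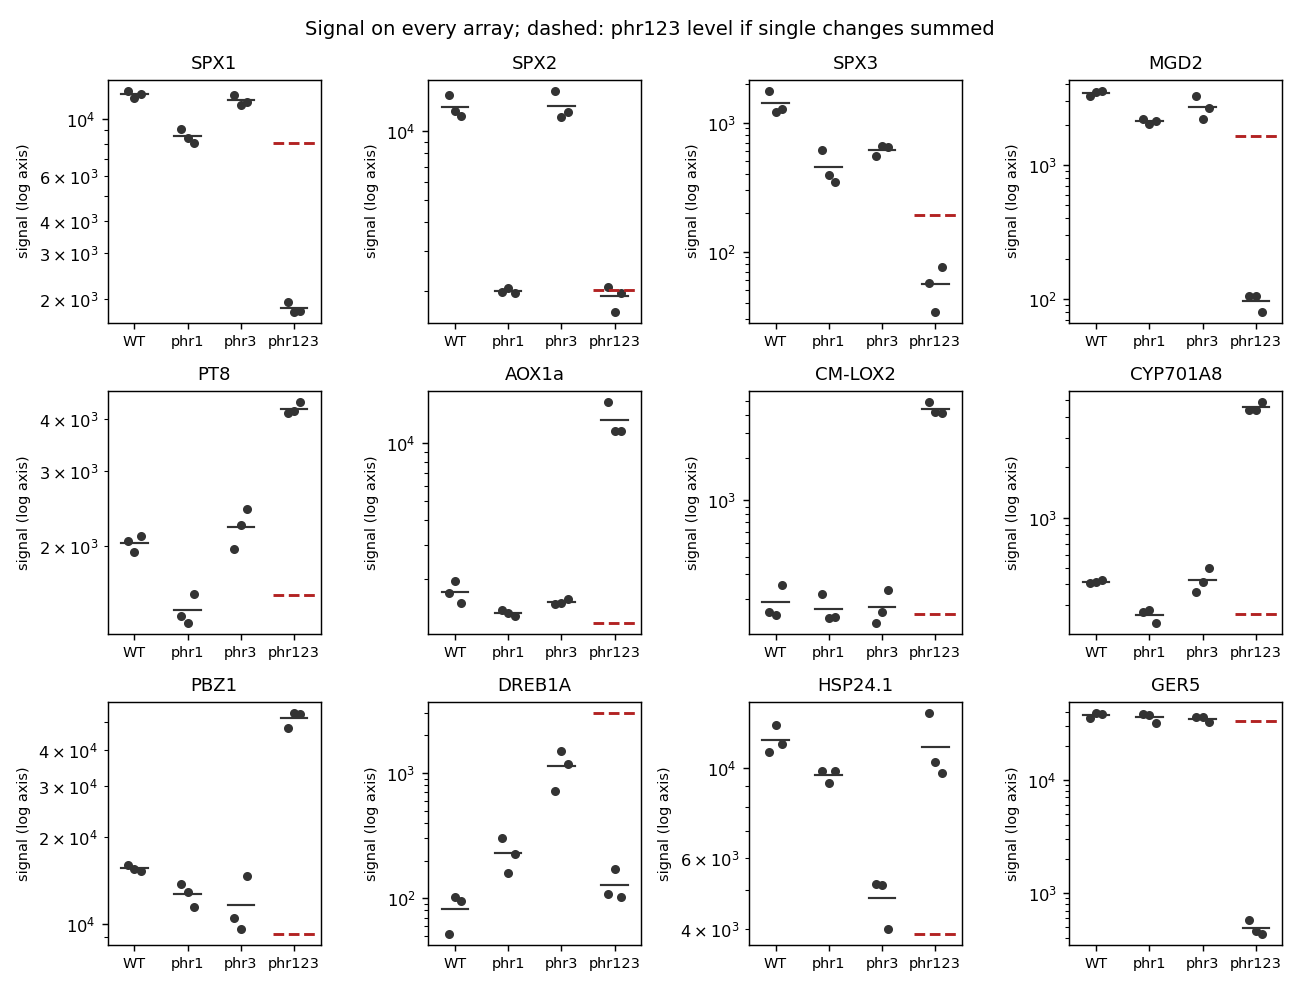
Each panel shows 1 gene, with the signal of all 3 arrays of each genotype as points on a log axis and their mean as a bar; the dashed red line is the phr123 level that the summed log2 changes of phr1 and phr3 give. SPX2 sits on that line, SPX1, SPX3, MGD2 and GER5 lie below it, PT8, AOX1a, CM-LOX2, CYP701A8, PBZ1 and HSP24.1 above it, and DREB1A, raised in phr3, falls far short of it.

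The monogalactosyldiacylglycerol synthases, which make the galactolipids that stand in for phospholipids, separated in the same way. MGD2 (LOC4345212) read 3263, 3510.1 and 3587 in WT, 2216, 2026 and 2146 in phr1, 3274, 2223 and 2662 in phr3 and 106, 105 and 80.7 in phr123. The phr123 arrays held 17.2-fold less than the sum of 1656, a departure of -4.10 (SE 0.199, adjusted p = 1.39e-08). MGD3 (LOC4331045) read 4032, 4448 and 4253 in WT, 3221, 2710 and 2663 in phr1, 4477, 4004 and 4242 in phr3 and 941, 991 and 940.5 in phr123, with a departure of -1.57 (SE 0.127, adjusted p = 1.02e-06). In both genes the phr123 arrays lay below every array of the other genotypes. MGD1 (LOC4347099), the synthase of the photosynthetic membranes, gave 0.06 with an SE of 0.151 and did not pass.

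Among the PHT1 transporters, which carry phosphate into cells, the departures pointed in opposite directions. Of 6 tested of 9 on the array, 2 lay above the sum and 1 below it. PT8 (LOC4348741) read 2045, 1935 and 2108 in WT, 1360.2, 1312 and 1536 in phr1, 1967, 2237 and 2440.2 in phr3 and 4116, 4173 and 4383 in phr123. It fell in phr1 and rose in phr123, with no overlap between these and WT, and departed by 1.47 (SE 0.135, adjusted p = 3.03e-06); its other probe set gave 1.39. PT1 (LOC4331635) read 1407, 1535 and 1618 in WT, 1689.7, 1457 and 1613 in phr1, 1727, 2152 and 2308 in phr3 and 3487, 4243 and 4191 in phr123, a departure of 0.89 (SE 0.169, adjusted p = 0.00121), but its other probe set gave -1.82, so its direction is uncertain. PT4 (LOC4335115) read 4267, 3692 and 4266 in WT, 2349.9, 2563 and 2476 in phr1, 3416, 2676 and 3635 in phr3 and 1062, 1197 and 1092 in phr123, with a departure of -0.80 (SE 0.159, adjusted p = 0.00163) that ended with centred arrays (-0.44, adjusted p = 0.199).

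Of the 3 genes tested for respiration and carbon metabolism that spare phosphate, AOX1a (LOC4336874), an alternative oxidase of the mitochondrion, had the largest departure. It read 1705, 1958 and 1509.7 in WT, 1387, 1344 and 1289.7 in phr1, 1498, 1519.6 and 1586 in phr3 and 16174, 11505 and 11437 in phr123. All 3 phr123 arrays exceeded every other array, 10.7-fold above the sum (departure 3.42, SE 0.182, adjusted p = 2.76e-08). PPDKB (LOC4338750), a pyruvate phosphate dikinase, departed by -0.47 (SE 0.119, adjusted p = 0.0088), which ended with centred arrays (-0.10, adjusted p = 0.756). PAP2, the only gene of the phosphatase list, departed by 0.40 (SE 0.138, adjusted p = 0.0418), and was not called without the array labelled phr123 replicate 1.

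Jasmonate genes lay above the sum. Jasmonate, a lipid hormone of wounding and defence, is made by lipoxygenases, allene oxide synthases and cyclases and OPDA reductases, and TIFY (JAZ) proteins repress its responses. Of 12 genes with names of these enzyme families tested of 18 on the array, 9 were above the sum and 0 below it, with a median departure of 1.04. Without the array labelled phr123 replicate 1, 7 were above, and 11 with centred arrays. The list goes by name, and whether each member acts in jasmonate synthesis was not tested. CM-LOX2 (LOC4345994), a lipoxygenase, read 163, 155 and 251 in WT, 218, 147 and 150.1 in phr1, 137, 162 and 230.5 in phr3 and 4939, 4202 and 4108 in phr123. CM-LOX1 (LOC4345993), its neighbour by gene number, read 641, 394 and 555 in WT, 322, 441 and 326 in phr1, 421, 466 and 499.5 in phr3 and 4409, 4234 and 4721 in phr123. The single mutants overlapped WT in both, while phr123 lay 28-fold and 14-fold above the sum, departures of 4.81 (SE 0.331, adjusted p = 2.66e-07) and 3.81 (SE 0.243, adjusted p = 1.4e-07).

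LOX1.1 (LOC4334049) had arrays above the reporter level in phr123 alone, with 1532, 1772 and 1655, at least 29.9-fold above WT (adjusted p of the departure 0.000162). A gene this dim elsewhere may enter the test through its phr123 arrays alone, so its call above the sum is no independent support. OPR1 (LOC4340490), an OPDA reductase, read 241, 246 and 239.6 in WT, 199.6, 182 and 258 in phr1, 219.7, 254 and 197 in phr3 and 1358, 1073 and 1075 in phr123, a departure of 2.58 (SE 0.243, adjusted p = 3.58e-06). The rise was again confined to phr123 among the 4 genotypes read. The allene oxide synthases AOS2 and AOS1 gave 1.70 (adjusted p = 0.00113) and 0.52 (adjusted p = 0.205), and OPR7 gave -0.16 and did not pass.

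Of 16 TIFY genes tested, 7 lay above the sum and 1 below it, with a median of 0.45. All 7 above it had a higher mean in phr3 than in WT as well, and phr123 went past the sum. TIFY10c (LOC4347164) read 1041, 779 and 723 in WT, 647, 637 and 675 in phr1, 812, 1283 and 1258 in phr3 and 6499, 8445 and 7778 in phr123 and departed by 3.14 (SE 0.248, adjusted p = 8.33e-07). TIFY11c (LOC4331833) read 742, 656 and 718 in WT, 689.8, 521 and 359 in phr1, 639, 1431 and 1599 in phr3 and 7970.5, 5670.4 and 6370 in phr123 and departed by 3.02 (SE 0.415, adjusted p = 9.13e-05). TIFY9 (LOC4335698) read 134, 98.7 and 186 in WT, 176, 56.7 and 167 in phr1, 161, 162 and 378 in phr3 and 2497, 2112 and 2122 in phr123 (departure 3.57, SE 0.587, adjusted p = 0.000405). Its phr123 arrays, like those of the 2 genes before it, exceeded every other array. TIFY10b, already bright in WT, departed by 0.86 (SE 0.142, adjusted p = 0.000416). TIFY11b, named after its values were seen, went the other way, at -1.21 (SE 0.319, adjusted p = 0.0108): it read 951, 808 and 879.6 in WT, 1229, 1134 and 1534 in phr1, 2738, 6495 and 4728 in phr3 and 2691, 2750.2 and 2928 in phr123, and phr123 stopped short of the sum. With centred arrays no TIFY gene lay below it.

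Several genes for diterpenoid phytoalexins, the antimicrobial compounds of rice leaves, lay above the sum. Of 11 terpenoid genes tested, 3 lay above the sum, 1, HMG3, lay below it and 7 were not called. Of 23 cytochrome P450 genes 9 lay above and 4 below, with a median of 0.55. Over all genes 17.6% lay above the sum and 20.0% below it. The P450 genes below it, named after their values were seen, act on hormones: ABA8OX1 and ABA8OX2 break down abscisic acid, and CYP90A4 and CYP734A6 act on brassinosteroids. CYP701A8 (LOC4341343), which oxidises a phytoalexin precursor, read 409, 412 and 424 in WT, 272, 283 and 236 in phr1, 358, 411 and 499 in phr3 and 4382, 4394 and 4892 in phr123. It fell in phr1 and was 17.1-fold above the sum in phr123 (departure 4.10, SE 0.186, adjusted p = 8.84e-09). CYP71Z7 (LOC4329726), of the phytocassane branch, read 137, 318 and 462 in WT, 178, 271 and 209 in phr1, 84.1, 97.2 and 178 in phr3 and 12874, 13206 and 13199.5 in phr123, a departure of 7.19 (SE 0.512, adjusted p = 3.44e-07). CYP76M7 (LOC4341447), of the same branch, read 336, 669.9 and 638 in WT, 264, 309 and 309 in phr1, 479, 397 and 437 in phr3 and 1231, 1712 and 1589 in phr123 (departure 2.61, SE 0.316, adjusted p = 3.02e-05).

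Of the diterpene cyclases at the head of the branches, CPS2 and CPS4 showed the same direction at lower signals. CPS2 (LOC9266189), for phytocassanes, read 223, 189 and 172 in WT, 131, 187 and 37.3 in phr1, 228, 144 and 231 in phr3 and 427, 737 and 1148 in phr123 (departure 2.85, SE 0.691, adjusted p = 0.00643). CPS4 (LOC4335090), for momilactones, was above the reporter level in phr123 alone, at 1099.8, 1031 and 1021, at least 19-fold above WT (adjusted p of the departure 0.00482). It may have entered the test through its phr123 arrays alone, so its call is no independent support. CYP99A2, a momilactone P450, departed by 4.32 (SE 0.76, adjusted p = 0.000687) with some arrays of every genotype but phr123 at the reporter level. CYP71P1 (LOC4351945), which makes serotonin from tryptamine, read 1162, 687 and 853 in WT, 1146, 1007 and 642 in phr1, 717, 873 and 837 in phr3 and 7754, 6798 and 6702 in phr123, and phr123 lay 8.52-fold above the sum (departure 3.09, SE 0.291, adjusted p = 3.62e-06). LIS, a linalool synthase, ran from 43.1 to 2160 within phr3, and its departure of 5.06 (SE 1.51, adjusted p = 0.0211) was not called with phr1 replicate 2 left out (adjusted p = 0.054).

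Chitinases, which cut fungal cell walls, and the pathogenesis-related protein PBZ1 were nearly all above the sum. Of 10 tested of 11 on the array, 8 lay above and 0 below, with a median departure of 1.71, and 8 lay above it without the array labelled phr123 replicate 1. Cht2 (LOC4349267) read 1364, 1004 and 1098 in WT, 1198, 1042 and 616 in phr1, 748, 815 and 1023 in phr3 and 19374, 17370 and 16422 in phr123, 25.9-fold above the sum (departure 4.69, SE 0.29, adjusted p = 1.04e-07); its other probe set gave 5.13. PBZ1 (LOC4352491) read 16027, 15425 and 15280.4 in WT, 13777, 12896 and 11393 in phr1, 10456, 9568 and 14683 in phr3 and 47544, 53547 and 53059.7 in phr123. It was bright in all genotypes, its means were below WT in both single mutants, and it departed by 2.47 (SE 0.182, adjusted p = 4.51e-07). Cht-3 and Cht-1 departed by 3.31 (SE 0.304, adjusted p = 2.91e-06) and 2.24 (SE 0.24, adjusted p = 1.09e-05).

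ABCG transporters, several of which export defence compounds, followed with 4 above and 0 below of 9 tested. ABCG36 (LOC4327728) read 233, 191 and 259.8 in WT, 182, 150.2 and 179 in phr1, 170, 186 and 286 in phr3 and 3060.5, 3630.4 and 3158 in phr123, 20.9-fold above the sum (departure 4.39, SE 0.276, adjusted p = 1.22e-07). ABCG37 and ABCG44 departed by 3.20 (SE 0.403, adjusted p = 4.28e-05) and 2.97 (SE 0.38, adjusted p = 4.94e-05), and for the 4 called members neither single mutant passed the test. Of 6 WRKY factors, regulators of defence, 1 departed, near the 17.6% of all genes above the sum, and the list median was 0.12. That member, WRKY62 (LOC4347070), read 417, 186 and 299 in WT, 268, 258 and 278 in phr1, 224, 359 and 303 in phr3 and 4570.3, 4800.4 and 4730.4 in phr123 (departure 4.11, SE 0.334, adjusted p = 1.09e-06). The mitogen-activated and related kinases gave 5 above and 1 below of 17, with MPK13 at 2.19 (SE 0.305, adjusted p = 0.000102).

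Heat shock proteins and their cochaperones, which keep proteins folded, lay above the sum, and many of them read lower in the single mutants than in WT. Of 30 tested of 33 on the array, 18 lay above the sum and 1 below it, with a median of 0.80. In phr3 8 fell and 1 rose, and in phr123 7 rose and 5 fell. HSP24.1 (LOC4330786) read 10940, 12718 and 11478 in WT, 9844, 9187 and 9835 in phr1, 5178, 5141 and 4008 in phr3 and 13649, 10326 and 9705 in phr123. It fell in phr3, its phr123 arrays straddled those of WT, and it departed by 1.51 (SE 0.179, adjusted p = 2.59e-05). HSP26.2 (LOC4340508) read 720.5, 799 and 802 in WT, 494, 562 and 601 in phr1, 428, 418 and 524 in phr3 and 1372, 1223 and 1131 in phr123 (departure 1.94, SE 0.182, adjusted p = 3.61e-06).

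DJB6, a J-domain cochaperone, departed by 1.34 (SE 0.147, adjusted p = 1.31e-05). HSP18.8 (LOC4343386) was the member below the sum, reading 17343, 13132 and 17188 in WT, 15049, 12697 and 13469 in phr1, 21324, 22471 and 23659.8 in phr3 and 7746, 8396 and 9277 in phr123: it rose in phr3 and fell in phr123 (departure -1.21, SE 0.156, adjusted p = 5.22e-05). The array labelled phr123 replicate 1 stood apart in some small heat shock proteins, named after their values were seen. HSP16.9A read 22762, 5313 and 5394 in the phr123 arrays, HSP23.2 read 3892, 482 and 523 and HSP26.7 read 4116, 203 and 252. Without that array 17 members lay above the sum and 1 below it.

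Heat stress factors, the regulators of heat shock genes, gave 7 above and 0 below of 19 tested, and 5 above without the array labelled phr123 replicate 1. HSFA4D (LOC4339409) read 601, 575 and 534 in WT, 650.1, 521 and 462 in phr1, 584, 490.4 and 726 in phr3 and 3026, 2939 and 2874 in phr123 (departure 2.39, SE 0.212, adjusted p = 2.2e-06). HSFB1 (LOC4347259) read 1129.5, 1140.3 and 1181 in WT, 867, 939 and 785 in phr1, 637, 1124 and 1066 in phr3 and 2691, 2502 and 2500.2 in phr123 (departure 1.90, SE 0.238, adjusted p = 4.06e-05). Both rose in phr123 alone. HSFB2C departed by 0.93 (SE 0.132, adjusted p = 0.000116), and HSFA2D, whose annotation also carries names of a dioxygenase, had 1 probe set at 0.91 and another at -0.69.

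Cold-response factors of the DREB1/CBF group, which switch on cold and drought genes, rose in phr3, and the rise was not carried in full into phr123. All 4 tested genes were called higher in phr3 and 1 of them, DREB1B, in phr123. All 4 tested of 5 on the array lay below the sum, with a median of -4.68, and with centred arrays as well. DREB1A (LOC4347620) read 51.9, 101 and 94.4 in WT, 303, 159 and 225 in phr1, 719, 1505 and 1174 in phr3 and 108, 169.6 and 102 in phr123. It rose in phr3 by 3.77 (adjusted p = 4.51e-05), its phr1 arrays lay above those of WT without passing the test (adjusted p = 0.0692), and all 3 phr123 arrays, just above those of WT, lay 24.6-fold below the sum (departure -4.62, SE 0.487, adjusted p = 9.69e-06). DREB1B (LOC4347618) read 7.9, 51.8 and 50.7 in WT, 130.5, 247 and 309 in phr1, 457, 2196 and 1339 in phr3 and 236, 234 and 326 in phr123 (departure -5.04, SE 0.943, adjusted p = 0.00109), and as 1 of its WT arrays exceeded the reporter level the size is uncertain. DREB1E read 112, 84.8 and 78 in WT, 112, 84.5 and 119 in phr1, 210.5, 384 and 238 in phr3 and 58.3, 79.1 and 97.2 in phr123 (departure -2.01, SE 0.463, adjusted p = 0.00471). DREB1G read 71, 86.4 and 2.9 in WT and 187, 104.5 and 48 in phr1. Its phr3 arrays read 414.5, 1453.4 and 625.2, and its phr123 arrays 110.3, 102.1 and 92.3. It departed by -4.74 (SE 1.4, adjusted p = 0.02). Only 2 of its WT and 2 of its phr1 arrays exceeded the reporter level, so this size is uncertain too, as is the list median. The call was lost when phr3 replicate 2 was left out (adjusted p = 0.0564). A fit lacking the eBayes trend lost it as well (adjusted p = 0.0534).

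Response regulators of the cytokinin pathway had 2 below the sum and 0 above it of 10 tested, the same share below as among all genes (20.0%). RR9 (LOC4349747), a type-A regulator that damps the cytokinin signal, read 637, 520 and 546 in WT, 1316, 1478 and 2048 in phr1, 2259, 2473 and 2055 in phr3 and 2969, 2771 and 2703 in phr123. It rose in all 3 mutants, by 1.49, 2.00 and 2.31, and phr123 therefore stopped 2.25-fold short of the sum (departure -1.17, SE 0.204, adjusted p = 0.000648). RR1 (LOC4335937) read 429.9, 326 and 484 in WT, 593, 622 and 659 in phr1, 715, 519 and 549 in phr3 and 429.9, 331 and 316 in phr123: its single-mutant arrays lay above those of WT without passing the test, and it departed by -1.34 (SE 0.253, adjusted p = 0.00117).

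A similar order appeared in single genes of other groups. PP2C32 (LOC4332509), a protein phosphatase of the PP2C family, read 533, 587 and 549.6 in WT, 944, 904 and 1104 in phr1, 1540.4, 2276 and 1884 in phr3 and 1216, 979 and 1045 in phr123, higher in all 3 mutants than in WT and highest in phr3 (departure -1.62, SE 0.2, adjusted p = 3.53e-05). GRXC1 (LOC4325734), a glutaredoxin, read 588, 939 and 1042 in WT, 1960.5, 2697 and 3255 in phr1, 1292, 1592 and 789 in phr3 and 326, 552 and 628 in phr123. It rose in phr1 and its phr123 arrays lay at the lower end of those of WT or below (departure -2.92, SE 0.425, adjusted p = 0.000149). TPP1 (LOC4330221), a trehalose phosphatase, read 578, 517 and 385 in WT, 624, 624 and 702 in phr1, 729, 1210.2 and 806 in phr3 and 269, 202 and 237 in phr123: it rose in phr3, fell in phr123 and departed by -2.35 (SE 0.282, adjusted p = 2.89e-05). TPP2 went the other way (departure 1.79, SE 0.34, adjusted p = 0.00122).

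**Figure D4:**
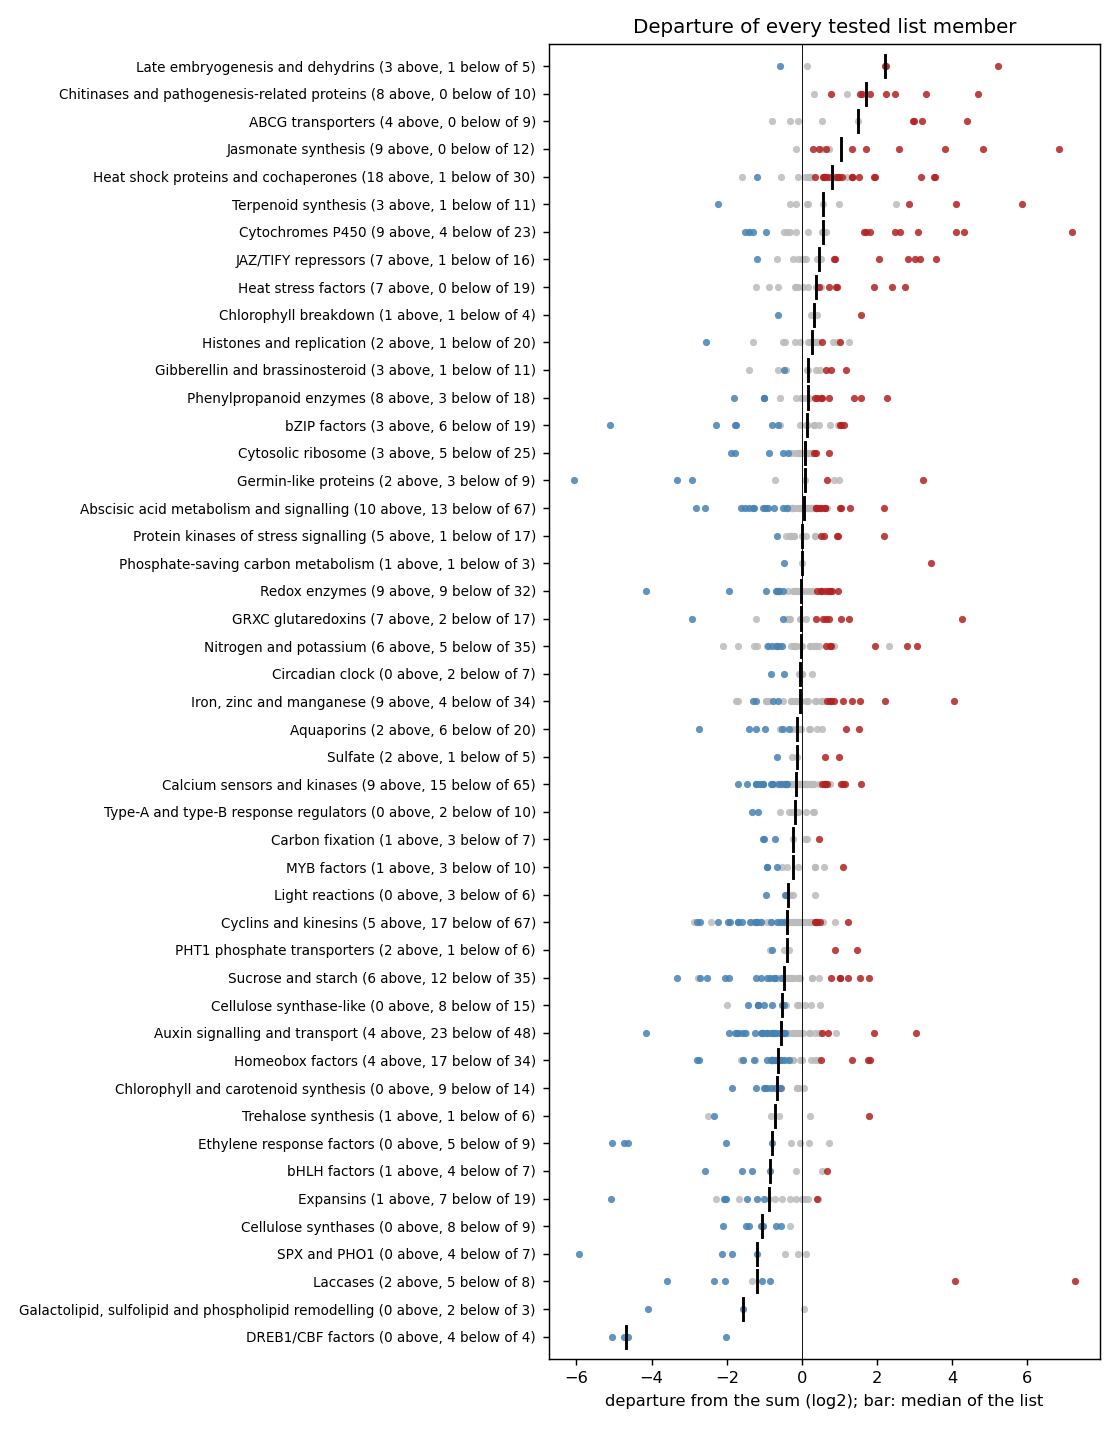
Each row is 1 gene list with 2 or more called members, ordered by median departure; points are tested members by their departure from the sum in log2 units, red above and blue below past the threshold and grey otherwise, and the black bar is the median of the list. Lists of defence and heat shock genes lie to the right of 0, and DREB1, membrane lipid, laccase, SPX and cellulose synthase lists to the left; fitted values of genes at the reporter level are drawn too and are no bounds.

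Cellulose synthases lay below the sum, and other cell wall genes departed less uniformly. Of 9 cellulose synthase genes, which build the main fibre of the wall, 8 lay below and 0 above, with a median of -1.07, and 4 lay below with centred arrays. CESA6 (LOC4342850) read 4414, 4858 and 4464 in WT, 4447, 4624 and 4348 in phr1, 3763, 3814 and 3530.5 in phr3 and 1584, 1219 and 1123 in phr123 (departure -1.48, SE 0.155, adjusted p = 8.86e-06). CESA1 (LOC4337958) read 9042, 11054 and 10515 in WT, 11385, 10964 and 9493 in phr1, 10314, 9691 and 9476 in phr3 and 4064, 3749.8 and 3746 in phr123 (departure -1.41, SE 0.13, adjusted p = 3.12e-06). CESA5 and CESA8 departed by -2.09 (SE 0.297, adjusted p = 0.000121) and -1.09 (SE 0.14, adjusted p = 4.94e-05). The single mutants overlapped WT in CESA1, and none of the 9 genes was called in either single mutant, while 8 fell in phr123.

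Expansins, which loosen the wall during growth, had 7 below and 1 above of 19 tested of 29 on the array, with a median of -0.89, and 5 below and 2 above with centred arrays. EXP7 (LOC4334606) read 3625, 4341 and 3944 in WT, 3068, 3613 and 3272 in phr1, 3121, 3984 and 3429.7 in phr3 and 92.4, 57.4 and 119 in phr123, 34-fold below the sum (departure -5.09, SE 0.283, adjusted p = 4.08e-08); 1 of its phr123 arrays was at or below the reporter level. EXPB11 (LOC4330213) read 912, 1123 and 1104 in WT, 1562, 1638 and 1620.5 in phr1, 1424, 1201 and 1447 in phr3 and 496, 506 and 487 in phr123, higher than WT in both single mutants, past the test in phr1, and lower in phr123 (departure -2.07, SE 0.155, adjusted p = 4.99e-07). EXP5 (LOC4330706) departed by -2.02 (SE 0.195, adjusted p = 4.44e-06) and EXPB4 by -1.47 (SE 0.202, adjusted p = 8.79e-05). The cellulose synthase-like genes, which make other wall sugars, gave 8 below and 0 above of 15, with CSLF6 at -1.18 (SE 0.162, adjusted p = 9.61e-05) and CSLC2 at -1.16 (SE 0.191, adjusted p = 0.000403), and 2 below and 1 above with centred arrays.

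Laccases, oxidases that couple lignin units, divided. Of 8 tested, 5 lay below the sum and 2 above it, and 3 and 2 with centred arrays. LAC20 (LOC4351006) read 2357, 1752 and 2379 in WT, 2481, 2405 and 1445 in phr1, 1611, 1765 and 2166 in phr3 and 82.5, 199.5 and 188 in phr123 (departure -3.59, SE 0.415, adjusted p = 2.06e-05), and LAC4 (LOC4327500) read 1445, 1177 and 1354 in WT, 1280.5, 1414 and 1156 in phr1, 1862, 1448 and 1149 in phr3 and 363, 355 and 302 in phr123 (departure -2.06, SE 0.226, adjusted p = 1.31e-05). LAC19 (LOC4351005), next to LAC20 by gene number, was at or below the reporter level on all WT arrays and read 853, 1097 and 954 in phr123, at least 17.4-fold above WT (adjusted p of the departure 0.00234). It may have entered the test through its phr123 arrays, so its call is no independent support. LAC24 read 233, 55.8 and 93 in WT, 208, 90.9 and 38.9 in phr1, 67.2, 172 and 92.8 in phr3 and 1985, 1288 and 1182 in phr123 (departure 4.06, SE 0.827, adjusted p = 0.00202). The phenylpropanoid enzymes, which supply lignin and phenolic units, gave 8 above and 3 below of 18, with CAD6 at 2.27 (SE 0.247, adjusted p = 1.27e-05), 4CL5 at 1.57 (SE 0.191, adjusted p = 3.31e-05) and CAD8C at -1.02 (SE 0.159, adjusted p = 0.000251).

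Germin-like proteins, secreted wall proteins, included the largest departure below the sum among the named genes measured in all genotypes. GER5 (LOC4345763) read 34897, 38972 and 38345 in WT, 38325, 37822 and 31566 in phr1, 35743, 35890.2 and 32486 in phr3 and 584, 467 and 438 in phr123. The single mutants overlapped WT, and phr123 lay 67.4-fold below the sum (departure -6.07, SE 0.153, adjusted p = 2.52e-11). GER8 (LOC4325743) read 5677, 5966 and 5322 in WT, 3466, 6160.2 and 5395 in phr1, 4472, 4432 and 4730.4 in phr3 and 531, 358 and 313 in phr123 (departure -3.32, SE 0.28, adjusted p = 1.49e-06), and GER4 departed by -2.92 (SE 0.281, adjusted p = 4.3e-06). GER6 (LOC4344843) was above the sum, reading 224, 226 and 229 in WT, 216, 200.1 and 188 in phr1, 130.5, 168 and 159 in phr3 and 647, 1826 and 1703 in phr123 (departure 3.23, SE 0.426, adjusted p = 6.39e-05). Over the 9 tested members 3 lay below and 2 above. PRX74, a peroxidase outside this family, read 2147, 2808 and 2011 in WT, 2042, 2633 and 2899 in phr1, 2051, 1733 and 1747 in phr3 and 174, 82.7 and 102 in phr123 (departure -4.14, SE 0.321, adjusted p = 7.23e-07), and over the 32 redox enzymes 9 lay above and 9 below, and 11 above and 3 below with centred arrays.

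Auxin and homeobox genes, regulators of growth and pattern, leaned below the sum to an extent that the scaling changed. Of 48 auxin genes tested, 23 lay below and 4 above, and 9 and 4 with centred arrays. IAA21 (LOC4340939), an auxin response repressor, read 8101, 8769.9 and 9058 in WT, 10324, 8574 and 7358 in phr1, 9008, 9697 and 8943 in phr3 and 2428, 2995 and 2638 in phr123 (departure -1.79, SE 0.16, adjusted p = 2.42e-06). IAA30 departed by -1.70 (SE 0.152, adjusted p = 2.38e-06). The amido synthetases GH3-8 and GH3.2, which inactivate auxin, were above the sum at 3.04 (adjusted p = 0.000195) and 1.91 (adjusted p = 0.000107); they were named after their values were seen. Of 34 homeobox factors 17 lay below and 4 above, and 3 and 5 with centred arrays. HOX2 (LOC4340070) read 1164, 1449 and 1204 in WT, 1019, 1430.1 and 1500.3 in phr1, 1088, 1105 and 1270.5 in phr3 and 187, 189.6 and 139.5 in phr123 (departure -2.79, SE 0.236, adjusted p = 1.49e-06).

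Cyclins, cyclin-dependent kinases, their inhibitors and kinesins, the motors of dividing cells, gave 17 below and 5 above of 67 tested. Over all genes 20.0% lay below and 17.6% above, so the share below was not far from that of all genes. With centred arrays the list gave 10 below and 7 above, beside 1432 and 4100 of all 15469 genes. Without the array labelled phr123 replicate 1 the list gave 19 below and 2 above. CYCP4-1 (LOC4349405) read 888, 1026 and 858 in WT, 728, 843 and 905 in phr1, 572, 927 and 706 in phr3 and 78.3, 92.8 and 128 in phr123 (departure -2.72, SE 0.285, adjusted p = 9.12e-06), and the kinesins KIN8B and KIN7K departed by -1.91 (SE 0.224, adjusted p = 2.31e-05) and -1.69 (SE 0.165, adjusted p = 4.95e-06). KRP6, a kinase inhibitor, had 1 probe set at -2.79 and another at 0.88, so its direction is uncertain. The dividing-tissue markers share kinesins and B-type cyclins with this list. Of 38 of them tested, 10 lay below the sum and 0 above, with a median of -0.55, and the part of that lower marker level in the counts of this and the wall groups was not tested.

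Sugar genes departed in both directions. Of 35 sucrose and starch genes tested, 12 lay below the sum and 6 above it, beside 20.0% and 17.6% of all genes. The count above was thus near the share of all genes. With centred arrays the list gave 6 below and 7 above, beside 1432 and 4100 of all 15469 genes. SUS1 (LOC4333062), a sucrose synthase, read 9843, 12922 and 12249 in WT, 12046, 13136 and 11237 in phr1, 9060.3, 9419 and 10341 in phr3 and 2095, 1330.5 and 1309.9 in phr123 (departure -2.70, SE 0.222, adjusted p = 1.15e-06), and its other probe set gave -2.83. SUS4 (LOC4332788), of the same family, read 542, 594 and 635 in WT, 510, 495 and 605 in phr1, 493, 569.8 and 510.4 in phr3 and 1903, 1626 and 1415 in phr123 (departure 1.78, SE 0.189, adjusted p = 1.01e-05). The 2 synthases thus departed in opposite directions, while the single mutants overlapped WT in both. CIN1, a cell wall invertase, departed by 1.22 (SE 0.142, adjusted p = 2.2e-05).

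Genes for chlorophyll and carotenoid synthesis lay below the sum, a count that mostly ended with centred arrays. Of 14 tested, 9 were below and 0 above, with a median of -0.65, and 2 were below with centred arrays. CHLI (LOC4333259), a magnesium chelatase subunit, read 277, 304 and 294 in WT, 258, 326 and 411 in phr1, 293, 243 and 277 in phr3 and 65, 100.5 and 87.6 in phr123 (departure -1.86, SE 0.314, adjusted p = 0.000483). PSY1 (LOC4342137), phytoene synthase, read 8133, 9176 and 8618 in WT, 7032, 8339 and 9960.4 in phr1, 9960.2, 8403 and 8286 in phr3 and 3385, 3916 and 3732 in phr123 (departure -1.22, SE 0.166, adjusted p = 8.22e-05). PORB, a protochlorophyllide reductase, departed by -0.94, and its call and that of CHLG, chlorophyll synthase, ended with centred arrays (adjusted p = 0.0771 and 0.0597).

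Photosynthesis genes had small departures in the median, -0.38 for light reactions and -0.24 for carbon fixation. The 4 green shoot markers, all photosynthesis genes, gave 2 below and 0 above. Light reaction genes gave 3 below and 0 above of 6, and 1 below with centred arrays. PSAH (LOC4339593), a photosystem I subunit, read 70496, 78643 and 73009.9 in WT, 80731, 71868 and 79789 in phr1, 73957, 70494 and 66398 in phr3 and 35846, 39024 and 39212 in phr123 (departure -0.95, SE 0.109, adjusted p = 1.84e-05). The light-harvesting gene LHCP (LOC4333359) and petC, a subunit of the cytochrome b6f complex, departed by -0.44 (adjusted p = 0.0132) and -0.42 (adjusted p = 0.00402), and both calls ended with centred arrays. FBPase and CFBP1, fructose bisphosphatases, departed by -1.04 (SE 0.125, adjusted p = 3.07e-05) and -1.02 (SE 0.165, adjusted p = 0.000354). The Rubisco small subunit gene rbcS departed by -0.73, which ended with centred arrays (adjusted p = 0.0928). FBA1, of the fructose bisphosphate aldolases, lay above the sum (departure 0.45, SE 0.0962, adjusted p = 0.00305). SGR (LOC4347672), which starts chlorophyll breakdown, was above the sum, reading 3417, 3052 and 3100.2 in WT, 2707, 2103 and 1969 in phr1, 1909, 3395 and 3555 in phr3 and 6133, 5776 and 6061 in phr123 (departure 1.58, SE 0.266, adjusted p = 0.000482).

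Genes for other nutrient ions departed in both directions. Of 35 nitrogen and potassium genes 6 lay above and 5 below, and of 34 iron, zinc and manganese genes 9 and 4, beside 17.6% and 20.0% of all genes. The nitrogen and potassium count above was thus near the share of all genes. With centred arrays these became 7 and 0, and 11 and 1, beside 4100 above and 1432 below of all 15469 genes. Without the array labelled phr123 replicate 1 the metal genes gave 7 above and 6 below. HAK17 (LOC4347211), of the potassium transporter family, read 1437, 1488 and 1393 in WT, 1136, 1362 and 1654 in phr1, 1489, 1542 and 2281 in phr3 and 13533, 13883 and 14025 in phr123 (departure 3.07, SE 0.217, adjusted p = 3.18e-07). HAK1 (LOC4335729), a high-affinity potassium transporter, read 1449, 1707 and 1683 in WT, 927, 771 and 918 in phr1, 1344, 979 and 1199 in phr3 and 1956, 2608 and 2766 in phr123: it fell in phr1, rose in phr123 and departed by 1.94 (SE 0.21, adjusted p = 1.16e-05). AMT3-2 (LOC4334717), of the ammonium transporter family, departed by 2.79 (SE 0.201, adjusted p = 3.81e-07), and YSL13, of a family of metal chelate transporters, by 2.22 (SE 0.237, adjusted p = 1.08e-05). NRAMP6, of the metal list, lay below the sum (departure -1.21, SE 0.19, adjusted p = 0.000278).

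Other signalling and stress groups were mixed. Over all genes 17.6% lay above the sum and 20.0% below it, and a count near these shares is no result about its list. Abscisic acid genes gave 10 above and 13 below of 67 (with centred arrays 17 and 5, and 7 and 11 without the array labelled phr123 replicate 1), with PP2C73 at -2.82 (SE 0.199, adjusted p = 3.18e-07). Calcium sensors and kinases gave 9 above and 15 below of 65, near the shares of all genes, and 12 above and 6 below with centred arrays, with CML4 at 1.58 (SE 0.16, adjusted p = 6.96e-06) and CPK3 at -1.23 (SE 0.158, adjusted p = 5.18e-05). Glutaredoxins gave 7 above and 2 below of 17, and 5 and 3 without the array labelled phr123 replicate 1. Aquaporins gave 2 above and 6 below of 20, but 4 above and 3 below with centred arrays. LEA19 (LOC4339480), of the late embryogenesis proteins that protect drying cells, read 291, 148 and 116 in WT, 170.5, 234 and 222 in phr1, 39, 70.7 and 84.5 in phr3 and 2102, 3102 and 3166 in phr123: it fell in phr3 and rose in phr123 (departure 5.21, SE 0.481, adjusted p = 3.15e-06). The other members of its list called above the sum, RAB16B and RAB21, were no longer called once phr123 replicate 1 was left out, at adjusted p = 0.0741 for RAB16B and 0.079 for RAB21. Both also lost the call without WT replicate 1 or phr1 replicate 2, among other settings. Dhn1, of the same list, lay below the sum (departure -0.59, SE 0.185, adjusted p = 0.0274). Its call was lost with centred arrays and without several single arrays.

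Gene regulator families gave mixed counts, to be read beside the 17.6% above and 20.0% below the sum over all genes. Of 19 bZIP factors 3 lay above and 6 below, but 6 above and 4 below with centred arrays, with BZIP52 at -1.79 (SE 0.264, adjusted p = 0.00017) and BZIP39 at 1.03 (SE 0.114, adjusted p = 1.44e-05). The bHLH factors gave 1 above and 4 below of 7, with BHLH003 at -1.59 (SE 0.236, adjusted p = 0.000172), and 1 and 2 with centred arrays. The MYB factors gave 1 above and 3 below of 10 (3 above and 1 below with centred arrays), and the MADS factors 0 and 1 of 13 (2 above and 0 below with centred arrays). Of 25 cytosolic ribosome genes 3 lay above and 5 below, with a median of 0.08, and with centred arrays 10 above and 2 below. Ethylene response factors, which include the DREB1 genes here, gave 5 below and 0 above of 9, and carbon fixation genes 3 and 1 of 7 (2 above and 2 below with centred arrays). Gibberellin and brassinosteroid genes gave 3 above and 1 below of 11 (5 above and 0 below with centred arrays), histone and replication genes 2 and 1 of 20 (5 above and 1 below with centred arrays), and sulfate genes 2 and 1 of 5. Clock genes gave 2 below of 7 and 0 with centred arrays. The NAC factors and the glutathione transferases each gave 1 above of 6, the single xyloglucan endotransglucosylase lay below, and the 1 other phosphate transporter did not pass.

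**Figure D5:**
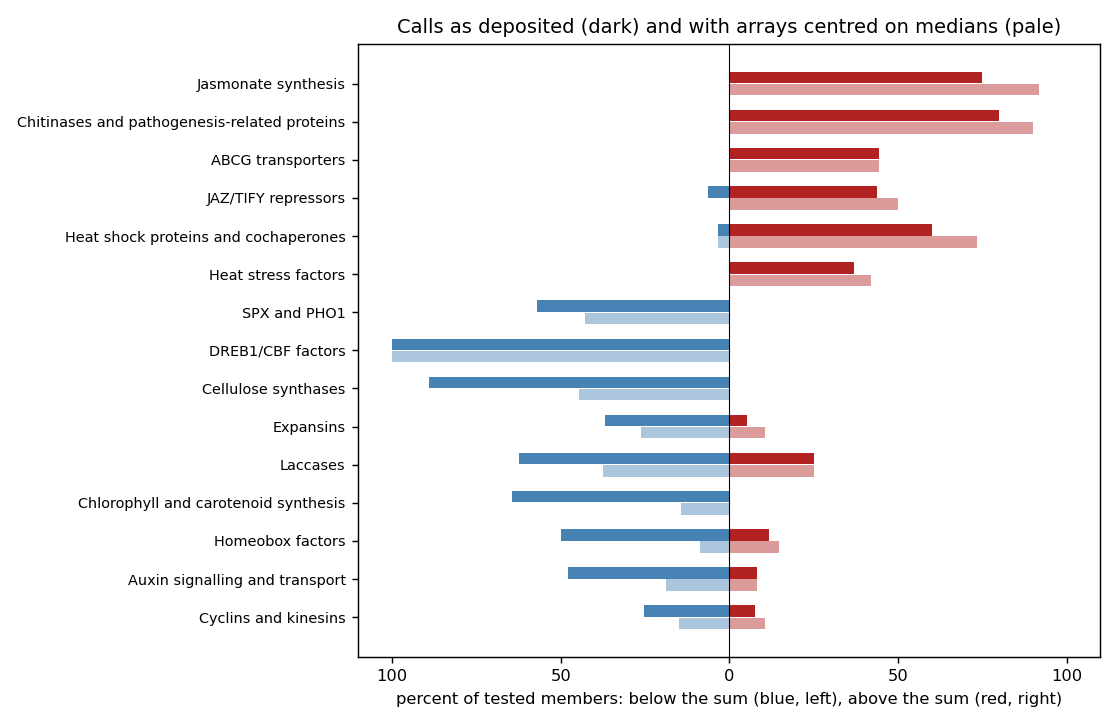
Bars give the percent of tested members of 15 gene lists above the sum (red, right) and below it (blue, left), for signals as deposited (dark) and with every array centred on its median (pale). The lists above the sum keep or gain their share, the DREB1 list keeps all of its 4 members below, and the homeobox, chlorophyll, cellulose synthase and auxin lists lose most or much of theirs. Centring moved the counts of all 15469 genes from 2723 above and 3096 below to 4100 and 1432. A gain above or a loss below is therefore shared by genes at large and does not rank the lists.

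Genes at or below the reporter level in phr123 alone have bounds in place of sizes. Besides PHR2 and SPX5, TDL1B (LOC9270335) read 593, 596 and 761 in WT, 612, 731 and 603 in phr1, 469, 678 and 602 in phr3 and 14.5, 1.7 and 22 in phr123, at least 8.9-fold below the sum. Cel9E (LOC4330637), a cellulase family member, was at least 7.24-fold below it, with 303, 449.9 and 424 in WT and 51.6, 44.5 and 68.6 in phr123. AT1 (LOC4348247), an acyltransferase by its synonym, was at least 5.06-fold below. In each of these genes all arrays of WT and both single mutants were above the reporter level.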

How the data were processed

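Shoot RNA of 12 samples, 3 each of WT, phr1, phr3 and phr123, was read on Affymetrix rice arrays. The deposited values are linear signal intensities that the authors obtained with MAS5, per the submitters' processing notes; its version is not stated in the labels; the trimmed mean was 500.1 on all arrays. Probe sets for AFFX (123) and reporter (64) controls were left out of 57381, 8 signals of 0 were set to 0.1 (0 among those tested), and 28597 probe sets at or above the median mean log2 signal (a signal of 49.4) were kept. That mean includes the phr123 arrays, so a gene dim in the other genotypes can be tested because phr123 is high. For such a gene a departure above the sum is close to fixed, and list counts above the sum may include such genes. Log2 signals were fitted in limma 3.58.1 (R 4.3.3) with 1 mean per genotype and eBayes with a trend (8 residual degrees of freedom). Adjusted p-values are Benjamini-Hochberg values over all probe sets tested, with a threshold of 0.05, and reflect only how far these samples, labelled as biological repeats, lie apart. The number of arrays, 3 per genotype, limits the precision. If all dimmer arrays lay at or below their reporter level, a fold is given as at least N-fold against that level; a reporter sequence with signal in phr123 was left out of the level.

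Gene names come from the array annotation and the synonyms in RefSeq's table of assembly ASM3414082v1, which give a name to 2167 of 15469 tested genes; some synonyms are shared by several loci, and no sequences were given. The 56 gene lists are name patterns, and 45 wrong matches were dropped after values were seen. Members and lists were chosen with earlier results of these data known. Genes named are the 15 largest departures each way with all 3 phr123 arrays outside the range of the 27 sums over single arrays, up to 4 of smallest adjusted p in each list with 2 or more calls, the PHR, SPX, MGD and PT genes, and up to 5 each way with phr123 alone above or alone at or below the reporter level; other list members printed with values were picked to show the range of their list. On simulated data, 34% of 100 departures of 1 log2 unit and 68% of 100 of 2 units were recovered. Those were the only departures planted among 28597 probe sets, while 30.0% were called in the real data. The adjustment was therefore stricter in the simulation, and its rates do not measure what was missed here. Alternatives were other filters, scalings, an offset of 16, linear signals, eBayes settings, a replicate block and leaving out each array.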

Additional observations from a re-analysis of the deposited data

Results flagged for a closer look

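Control probe sets for a reporter sequence, which enter no comparison, had signal in phr123 above every other array. The means were 421.6 and 180.8 in phr123 for a pair of probe sets of this sequence, against 55.5 and 30.7 in WT, 58.5 and 18.3 in phr1 and 55.9 and 38.8 in phr3. The first read 373.5 to 458.8 in phr123 and at most 119 on the WT arrays. The other probe set of this sequence read 67.7, 108.3 and 197.5 in phr123 and at most 34.2 on any other array. Probe sets of no other reporter sequence had all 3 phr123 arrays above every other array.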

How the results depend on the processing

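The total of called departures, 8572, stayed within 1.5 times under every alternative run, from 7623 to 8189 when each array was left out in turn and 8139 with centred arrays. Its split did not: 5952 lay above and 2187 below the sum with centred arrays. Calls against WT were less stable. The phr1 count of 267 was 121 with eBayes without a trend and 128 to 384 when arrays were left out, and was more than 1.5 times lower at 169 and 146 on leaving out WT replicates 1 or 2, and at 128 and 164 on leaving out phr1 replicates 2 or 3. The phr3 count of 569 was 298 with centred arrays, 299 with eBayes without a trend and 331 to 718 when arrays were left out, and was likewise lower at 331 and 378 on leaving out WT replicates 2 or 3, and at 347 and 341 on leaving out phr3 replicates 2 or 3. Both counts were highest without the array labelled phr123 replicate 1. Of 180 named genes with a called departure, 27, all below the sum, lost the call with centred arrays, 7 with eBayes without a trend, and 1 to 6 with each array left out. SPX3 alone reversed, to 402.3 on the linear signal. PHR3 was called without phr123 replicate 3 (2.46, adjusted p = 0.0279). In the replicate block fit 8235 departures were called, 3706 above and 4529 below; same-numbered arrays did not deviate together (18 pairs, r from -0.046 to 0.032), so the numbers do not pair the samples. Over tested probe sets, 11407 had an unadjusted p below 0.05. Signals near the reporter level leave 402 called probe sets with a genotype that has only a bound.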

Other observations

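Families grouped by a shared symbol, picked after their values were seen and described without a test, also held several called members. Of 7 PCF genes, which encode TCP-type factors of cell proliferation, 4 lay below and 0 above, with a median of -1.30. Of 5 TBL genes, of the trichome birefringence-like family that acetylates wall sugars, 4 lay below and 0 above. The CASPL genes, relatives of the proteins that lay out the Casparian strip, gave 3 above and 7 below of 19.

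Above the sum lay 5 of 7 SDH genes, which encode subunits of mitochondrial succinate dehydrogenase, with 0 below and a median of 0.44. Ascorbate peroxidases (APX), which remove hydrogen peroxide, gave 4 above and 1 below of 7. The OST genes, subunits of the enzyme that glycosylates secreted proteins, gave 3 above and 0 below of 5, and protein disulfide isomerases (PDIL) 3 above and 1 below of 10. Over all genes tested, 17.6% lay above the sum and 20.0% below.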
